A study of Mus musculus with 6 samples.

Results

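The Toll-like receptor (TLR) genes described here are Tlr1, Tlr2, Tlr3, Tlr4, Tlr5, Tlr6, Tlr9, Tlr11, Tlr12 and Tlr13, 10 of the 53843 mouse genes in the GENCODE annotation used. TLRs are membrane proteins that recognise conserved microbial molecules, and fat cell precursors carry several of them beside the immune cells in which they are best known. They bind their ligands through leucine-rich repeats and pass the signal through adaptor proteins such as MyD88 and TRIF to NF-kappaB and interferon regulatory factors. TLR2 works in pairs with TLR1 or TLR6 and recognises bacterial lipopeptides, TLR4 recognises lipopolysaccharide, TLR5 flagellin, TLR11 and TLR12 protozoan profilin, and TLR3, TLR9 and TLR13 sense nucleic acids inside endosomes.

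The data are ATAC-seq peak lists of white preadipocytes that were isolated from mouse inguinal white adipose tissue, grown in culture and collected at day 0, before any differentiation medium was given. ATAC-seq uses the transposase Tn5 to cut and tag open chromatin. There were 3 wild type (WT) libraries and 3 double knockout (DKO) libraries, the latter from mice of genotype Hmgn1-/- and Hmgn2-/-, which lack 2 nucleosome-binding proteins in all tissues. The labels give C57BL/6 as the strain of all 6 libraries, and the study's methods name the DKO line as B6.Cg-Hmgn2tm1.1Mbus Hmgn1tm1Mbus/Mmjax. Nothing in the labels says whether each library came from its own mouse, so the p-values below measure the spread between these cultures only.

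A list holds the summits of peaks, and the members of each gene were the summits in its gene body or within 10 kb of it. The WT lists held 88, 95 and 102 such summits and the DKO lists 92, 93 and 96, of 299433 to 299620 in a list. Values of 3 libraries are given in the order of their replicate numbers throughout. Summits were gathered into windows of a fixed width, without overlap, of which 51 of 179249 lay in the Tlr loci. The genes were chosen by the readout: an earlier look at these data had singled out a window at Tlr6 among the sites that differed most. Values of the neighbouring Tlr6 and Tlr1 genes are therefore given as a description, without a test.

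The lists were close to a limit of 300000 lines, so a region without a summit lies below the end of its list and need not be closed. That end differed between libraries. The lowest listed pileup, which is the number of Tn5 cut sites at a summit, was 10, 10 and 12 in the WT lists and 10, 10 and 8 in the DKO lists. The most frequent background, a measure of depth, was 2.42, 2.51 and 2.41 in WT and 2.58, 2.53 and 2.05 in DKO, with DKO replicate 3 the shallowest library. Among markers of the labelled cell type, 9 of 12 fibroblast and preadipocyte genes had a summit within 1 kb of a start in all 6 libraries, Pdgfra, Pdgfrb and Col1a1 among them, and none of the 12 was without a summit throughout.

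Tlr6 and Tlr1 are neighbours on chromosome 5, transcribed in the same direction, with Tlr1 downstream of Tlr6. The sequences below come from RefSeq (GRCm38.p6, minus strand, written 5′ to 3′) and are shown because the Tlr window that differed most lies at this start. The Tlr6 and Tlr1 stretches, chr5:64960098-64960298 and chr5:64933564-64933808, end at the base before the most upstream annotated transcript start of each gene. Capitals mark matches to any of 6 searched motifs on either strand: AP-1 (TGANTCA), C/EBP (TTGCNNAA), SPI1 (GAGGAAGT), TEAD (GGAATG), NF-kappaB and the interferon-stimulated response element (ISRE). The third line gives the 21 bases around the median WT summit, chr5:64960068-64960088, all in capitals as the summit region.
Tlr6 upstream: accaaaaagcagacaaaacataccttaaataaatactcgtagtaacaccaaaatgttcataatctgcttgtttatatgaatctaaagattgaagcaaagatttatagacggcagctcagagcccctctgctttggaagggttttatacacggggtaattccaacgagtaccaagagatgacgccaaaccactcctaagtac
Tlr1 upstream: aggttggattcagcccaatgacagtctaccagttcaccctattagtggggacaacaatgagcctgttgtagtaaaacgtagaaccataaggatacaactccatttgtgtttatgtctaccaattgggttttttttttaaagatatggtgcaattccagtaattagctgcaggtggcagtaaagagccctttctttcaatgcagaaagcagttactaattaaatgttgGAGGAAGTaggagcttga
Tlr6 summit: CAGGCTTAGGACTAGGGTTGG

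The Tlr6 stretch held none of the motifs, and the Tlr1 stretch held 1 SPI1 match that begins 23 bases before the RefSeq start. An SPI1 match was present in 3.20% of all 32851 RefSeq promoters of 300 bases, AP-1 in 7.81%, C/EBP in 10.8%, TEAD in 14.7%, NF-kappaB in 4.51% and ISRE in 3.44%. RefSeq also gives Tlr6 a second promoter, at a start (64959166) further downstream that no window covered, with 1 C/EBP match and 2 ISRE matches. A match describes letters only. The printed Tlr6 stretch was 38.8% GC, and the whole Tlr6 start window was 38.1% GC and 13.0% repeat.

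The Tlr6 start window, chr5:64959829-64960329, had a summit in every WT list and in no DKO list. Its fold enrichment, the pileup plus 1 over the local background plus 1 in the same library, was 11.8, 12.8 and 15.4 in the WT libraries (13.3 ± 1.87, SD, n = 3). The WT pileups were 52, 57 and 72, and the summits ranked 45463, 27617 and 37905 by p in their lists. The best summit lay 31, 32 and 27 bases upstream of the start in the basic GENCODE set. A longer transcript of the comprehensive set starts further upstream, so that these summits fall 19, 18 and 23 bases inside its first, untranslated exon. The WT intervals around the summit were 222, 224 and 234 bp long, and no DKO interval overlapped the window. With the mean WT background at this site, 3.59, a pileup of 13, 13 and 12 would have entered the DKO lists in turn. The WT values thus lay well above the end of the DKO lists, and the groups did not overlap.

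On the quantile-normalized log2 scale the difference of the Tlr6 start window was −3.02 ± 0.24 (SE, DKO minus WT). Since the DKO libraries enter at the lowest value of their lists, this measures the height of the WT peak above that value and is no fold change of accessibility. The value came to −2.46 when pileups replaced fold enrichment and to −1.93 when only the 50000 best summits of each list were used. It stood between −3.10 and −2.96 when any library was left out. Counted from the most negative change, the window ranked 4 over all windows. It also ranked 4 by mean WT fold enrichment among the 2204 windows that every WT list and none of the DKO lists held. These are 1.23% of all windows. Among the 161 of those that lie within 1 kb of a transcription start, out of 30377 start windows, it ranked 1. The window was singled out earlier by its difference in these data, so nothing is read from its ranks.

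The summits around the Tlr6 start differed between genotypes over a longer stretch than this window. Inside the window, each WT library also had a weaker summit 126, 124 and 128 bases upstream, with pileups of 27, 23 and 39. Outside it, each had another 354, 359 and 360 bases downstream of the start, with pileups of 17, 23 and 17. The DKO lists held none of these. Their nearest summits lay 955, 961 and 964 bases upstream, with pileups of 20, 14 and 11, where no WT library had a summit within 100 bases, and were singled out after their values were seen. In the window chr5:64961081-64961581, 1.28 kb upstream of the start, the DKO pileups were 16, 24 and 16, while WT replicate 1 had 15 and the other WT lists had no summit. Its log2 difference was 1.52 ± 0.39. Further out, the window chr5:64951513-64952013 past the 3′ end of the gene had WT pileups of 16, 10 and 22 and a DKO pileup of 8 in replicate 3 alone (log2 difference −1.17 ± 0.42). The window chr5:64962514-64963014 had a summit in WT replicates 2 and 3 alone, with pileups of 15 and 16 (−0.67 ± 0.44), near the end of those lists. In the plot of summits along the locus these are the low bars beside the start.

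**Figure D1:**
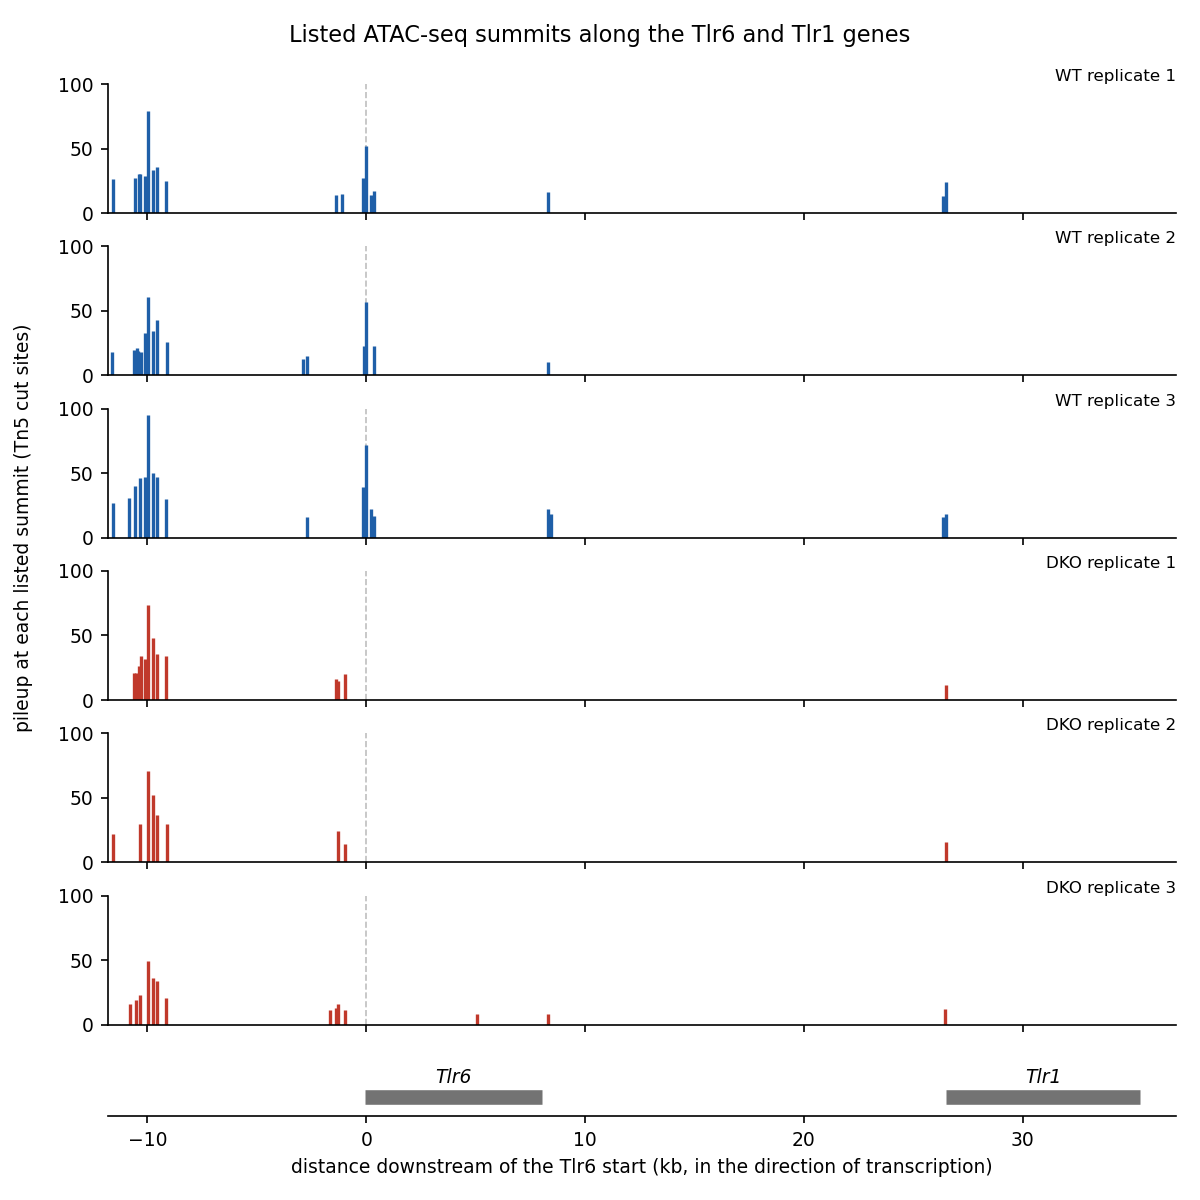
Height of each listed summit (pileup, Tn5 cut sites) against its distance downstream of the Tlr6 start in kb, in a panel for each of the 6 libraries, with gene bodies as grey bars and the Tlr6 start as a dashed line. The bars of 52, 57 and 72 cut sites at the start in the WT panels have no counterpart in the DKO panels, while the group of summits 10 kb upstream is present in all 6.

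The remaining Tlr6 windows were listed in all 6 libraries and their groups overlapped. The one with the highest fold enrichment among these, chr5:64969760-64970260, lies 61 bases from the start of the next gene, Fam114a1, where it is a start window of that gene. Its fold enrichment was 10.1, 8.33 and 9.74 in WT and 9.52, 9.01 and 7.35 in DKO, a log2 difference of 0.06 ± 0.14. The window chr5:64968932-64969432 beside it had pileups of 25, 26 and 30 in WT and 34, 30 and 21 in DKO (0.43 ± 0.33). Listed summits in the Tlr6 gene and its flanks came to 11, 10 and 11 in WT and 7, 6 and 10 in DKO.

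Tlr1, the other partner of TLR2, had a single window, chr5:64933326-64933826, 15 bases from its start. Its pileups were 24 and 18 in WT replicates 1 and 3, with no summit in WT replicate 2, and 12, 16 and 12 in DKO. The listed DKO pileups were all below both listed WT pileups. In the normalized values WT replicate 3 lay within the DKO range and WT replicate 2, entered at the lowest value of its list, below it. The log2 difference was 0.29 ± 0.48. It was −0.34 without WT replicate 2, 0.74 without WT replicate 1, 0.10 without scaling and −0.02 with pileups. The start of Tlr1 was thus listed in all DKO libraries, in contrast to the start of Tlr6, which lies 26.5 kb from it.

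Tlr2, whose product pairs with both, had 5 windows. Near its start the RefSeq sequence chr3:83841768-83841858 (minus strand, upstream of the GENCODE start, NF-kappaB matches in capitals) is shown because it holds 2 overlapping matches to the NF-kappaB motif.
Tlr2 upstream: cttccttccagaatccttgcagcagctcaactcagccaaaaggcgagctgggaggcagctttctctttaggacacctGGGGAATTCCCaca

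The start window of Tlr2, chr3:83841200-83841700, was listed in all 6 libraries. Its fold enrichment was 7.58, 7.45 and 8.34 in WT and 6.56, 5.99 and 6.49 in DKO. The raw DKO values were all below the WT values, but the normalized values overlapped, with a log2 difference of −0.11 ± 0.16 (limma adjusted p = 0.831). The strongest Tlr2 window, chr3:83828092-83828592, lies 13.4 kb downstream of the Tlr2 start in an intron of the overlapping gene model Gm7115. It had 19.8, 11.4 and 17.3 in WT and 12.2, 8.50 and 10.2 in DKO, and WT replicate 2 fell within the DKO range. The log2 difference was −0.47 ± 0.18 (limma adjusted p = 0.347). It was −1.53 with the 50000 best summits, −0.30 without WT replicate 1 and −0.30 without DKO replicate 2, and did not pass the threshold in any of these.

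Another Tlr2 window, chr3:83839465-83839965 in an intron, went the other way in listing. It had pileups of 22, 17 and 22 in DKO and no summit in any WT list. Its DKO fold enrichments were low, from 3.39 to 5.32, with ranks of 159837, 232787 and 109754 in lists of about 300000. The log2 difference was 1.56 ± 0.38 (limma adjusted p = 0.159). It was the only window of the 51 listed in all DKO and no WT libraries, against 1.14% of all windows. The gene as a whole held 10, 11 and 13 summits in WT and 16, 16 and 16 in DKO, counts that did not overlap. They were singled out after their values were seen. The share of all genes with such counts was not computed, so nothing is read from them. The centres (201 bp, minus strand) of the DKO-listed window, chr3:83839615-83839815, and of the strongest window, chr3:83828242-83828442, are given to show that the latter holds 2 AP-1 matches, in capitals, and the former none of the motifs.
Tlr2 DKO-listed: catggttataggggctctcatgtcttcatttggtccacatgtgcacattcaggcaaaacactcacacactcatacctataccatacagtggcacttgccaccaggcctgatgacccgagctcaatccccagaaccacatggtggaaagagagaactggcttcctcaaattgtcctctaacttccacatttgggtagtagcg
Tlr2 strongest: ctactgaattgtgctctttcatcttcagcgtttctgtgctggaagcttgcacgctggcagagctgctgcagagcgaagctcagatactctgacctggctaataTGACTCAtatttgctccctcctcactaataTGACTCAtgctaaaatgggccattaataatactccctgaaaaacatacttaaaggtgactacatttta

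Tlr4 encodes the lipopolysaccharide receptor and was the richest locus, with 14 windows along 102701 bp of gene body. Its start window, chr4:66827342-66827842, gave fold enrichments of 8.91, 6.94 and 8.90 in WT and 8.49, 7.27 and 6.73 in DKO. The groups overlapped, with a log2 difference of 0.05 ± 0.15 (limma adjusted p = 0.944). The strongest window, chr4:66828642-66829142 in the first part of the gene, had 13.1, 13.9 and 14.6 in WT and 12.1, 13.7 and 15.6 in DKO, again with overlap (0.14 ± 0.15, limma adjusted p = 0.727). An intronic window 24.6 kb into the gene, chr4:66851963-66852463, was listed in all 6 libraries without overlap. Its fold enrichment was 9.05, 8.54 and 13.2 in WT and 6.15, 5.95 and 4.59 in DKO, and the log2 difference was −0.68 ± 0.16 (limma adjusted p = 0.155). Its central 201 bp, chr4:66852113-66852313 on the plus strand, held none of the motifs.
Tlr4 intronic: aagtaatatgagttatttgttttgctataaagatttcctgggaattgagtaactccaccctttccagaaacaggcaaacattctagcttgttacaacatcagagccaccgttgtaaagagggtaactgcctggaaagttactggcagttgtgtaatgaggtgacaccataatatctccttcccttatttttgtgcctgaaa

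The next window, chr4:66852473-66852973, had pileups of 14, 12 and 13 in WT and 11 in DKO replicate 1 alone, close to the ends of the lists. Over the 14 Tlr4 windows the median log2 difference was −0.09, and 24 to 30 summits were listed in each library.

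Tlr5, the flagellin receptor, had 8 windows, 7 of them listed in all 6 libraries. At its start, chr1:182954546-182955046, fold enrichment was 5.40, 4.43 and 5.32 in WT and 4.57, 4.42 and 4.17 in DKO (log2 difference −0.04 ± 0.23, limma adjusted p = 0.987). The strongest window, chr1:182982893-182983393, lies beyond the 3′ end of Tlr5 and had 17.6, 16.5 and 20.2 in WT and 15.3, 19.1 and 16.7 in DKO (0.05 ± 0.10, limma adjusted p = 0.909). Groups overlapped at both. In the intronic window chr1:182960013-182960513 the raw values of 9.05, 7.85 and 10.9 in WT and 9.80, 9.52 and 8.90 in DKO overlapped, but the normalized values did not, and the log2 difference was 0.22 ± 0.12 (limma adjusted p = 0.458). It was 0.03 without scaling and 0.06 with pileups.

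The profilin receptors differed in coverage. Tlr11 had no listed summit in any of the 6 libraries, in its gene body or its flanks. Tlr12 had 5 windows. The strongest, chr4:128609974-128610474, lies 126 bases from the start of Zscan20, a zinc finger gene, and gave fold enrichments of 23.3, 19.7 and 23.2 in WT and 20.6, 21.5 and 20.9 in DKO (0.05 ± 0.09, limma adjusted p = 0.886). The window nearest the Tlr12 start, chr4:128619110-128619610, 741 bp upstream, had 7.98, 6.10 and 8.73 in WT and 4.51, 7.83 and 6.96 in DKO (−0.07 ± 0.22, limma adjusted p = 0.955). The groups overlapped in both.

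Among the receptors for nucleic acids, Tlr3, which senses RNA of paired strands, had 2 windows, and in WT the highest fold enrichment at a start after that of Tlr6. Its start window, chr8:45410124-45410624, gave fold enrichments of 11.2, 10.5 and 13.8 in WT and 11.3, 13.0 and 11.7 in DKO. The raw values overlapped, and the normalized values did not, with a log2 difference of 0.20 ± 0.11 (limma adjusted p = 0.459), or 0.03 without scaling. The ranks by p were 62137, 52385 and 58232 in WT and 46723, 45206 and 39974 in DKO, on either side of 50000. With the 50000 best summits only, the window was therefore listed in DKO alone and the difference became 1.94 (limma adjusted p = 0.0252). The window also lies in an intron of the antisense gene Gm45542, and accessibility has no strand.

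Tlr9, which senses unmethylated CpG DNA, had 6 windows and none within 1 kb of its start. The strongest, chr9:106226016-106226516, covers a coding exon and gave fold enrichments of 6.07, 7.09 and 7.60 in WT and of 5.04 to 6.57 in DKO (−0.01 ± 0.19, limma adjusted p = 0.998). Tlr13, which senses bacterial ribosomal RNA, had 4 windows and likewise none at its start. Its strongest window, chrX:106149420-106149920 in an intron, had 19.6, 13.4 and 19.9 in WT and 18.0, 15.0 and 14.6 in DKO (−0.00 ± 0.12, limma adjusted p = 0.999), and the groups overlapped. The window chrX:106135885-106136385, 7.09 kb upstream of the start, had raw values of 8.18, 4.84 and 10.6 in WT and 10.9, 8.79 and 8.19 in DKO. Only the normalized values were apart (0.49 ± 0.20, limma adjusted p = 0.359). The difference was 0.28 without WT replicate 2, the lowest of the WT libraries here, and 0.30 without scaling.

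**Figure D2:**
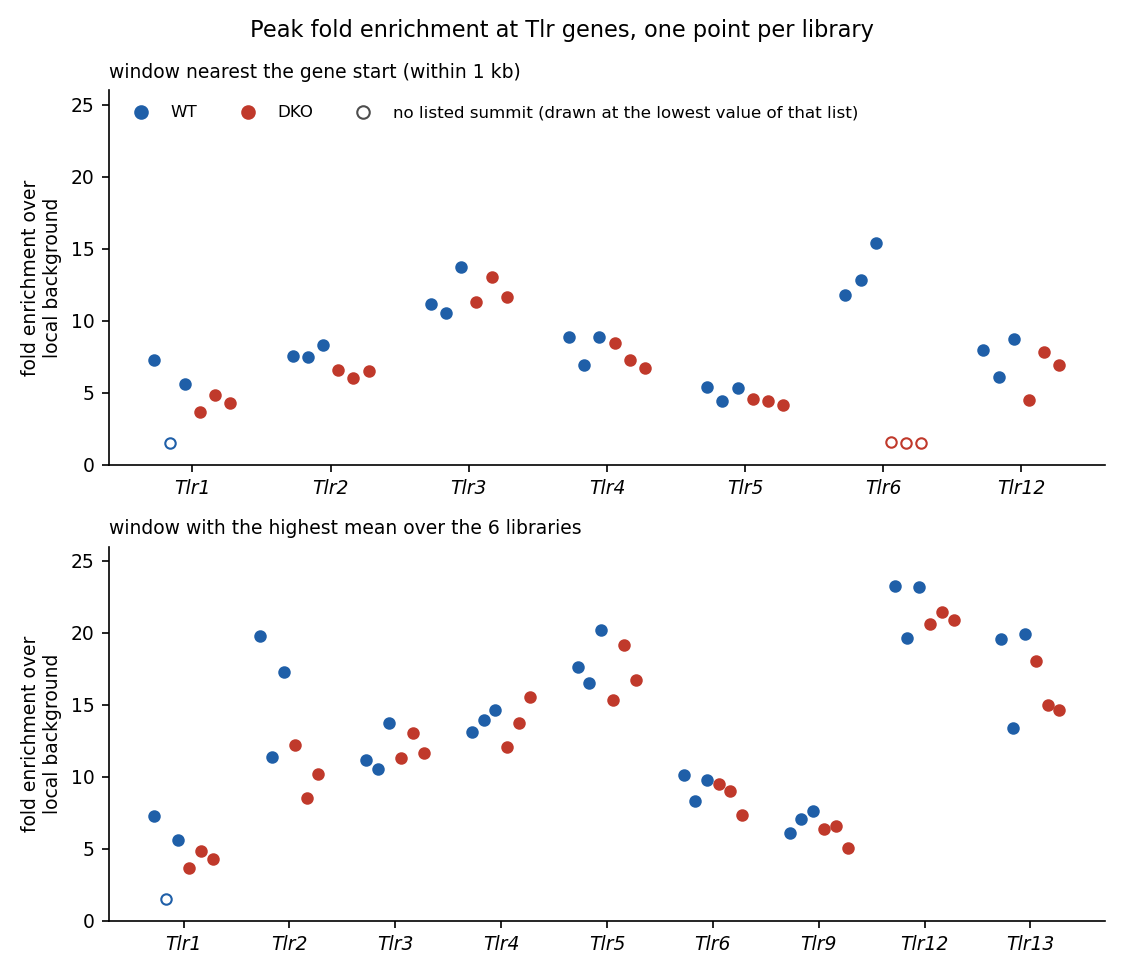
Fold enrichment over the local background in each library (WT in blue, DKO in red) for the window nearest the start of each gene and for its strongest window. Open points stand for a library without a listed summit and are drawn at the lowest value of its list; the start of Tlr6 is the only one with 3 such points.

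In order of mean fold enrichment in WT, the start windows ran from Tlr6 (13.3) through Tlr3 (11.8), Tlr4 (8.25), Tlr2 (7.79) and Tlr12 (7.60) to Tlr5 (5.05). Tlr1 is left out of this order because WT replicate 2 had no summit there. The WT ranges of Tlr3 and Tlr4 were apart, as were those of Tlr12 and Tlr5, and the ranges of the other neighbours overlapped. In DKO the order began with Tlr3 and went on with Tlr4 (7.49), Tlr12 (6.43), Tlr2 (6.35), Tlr5 (4.39) and Tlr1 (4.24), with Tlr6 unlisted. Here the ranges of Tlr3 and Tlr4 and those of Tlr2 and Tlr5 were apart, and those of the other neighbours overlapped. By the mean over the 6 libraries, Tlr3 stood at the 76.9th percentile of all windows within 1 kb of a start and Tlr1 at the 36.5th.

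The 10 genes together are set beside the whole of the data. Of their 51 windows, 30 (58.8%) were listed in all 6 libraries, against 58.0% of all windows. Changes were negative in 25 and positive in 26, with a median log2 difference of 0.04, against 0.01 over all windows. In 8 windows (15.7%) the normalized WT and DKO values did not overlap, 3 lower and 5 higher in DKO, against 16.4% of all windows. Of these 8, 3 are Tlr6 windows, and without Tlr1 and Tlr6 the count was 5 of 44 (11.4%), 1 lower and 4 higher. Among the 30 listed throughout it was 4 (13.3%), against 17.8%.

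With limma over all 179249 windows, 65 windows (0.0363%) were lower in DKO and 42 (0.0234%) higher at an adjusted p under 0.05. Of the 51 Tlr windows 1 was lower and 0 higher. The 1 was the Tlr6 start window, by which the genes were chosen, so that its place in this count is given by the choice and nothing is read from it. Of the 44 windows of the other genes 0 passed, while 5 of them (11.4%) had an unadjusted p under 0.05, against 11.8% of all windows. The share of Tlr windows listed in WT only was 1 of 51 and again was the Tlr6 start. Listed summits per library averaged 95 ± 7 (SD, n = 3) for WT and 93.7 ± 2.08 (SD, n = 3) for DKO.

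**Figure D3:**
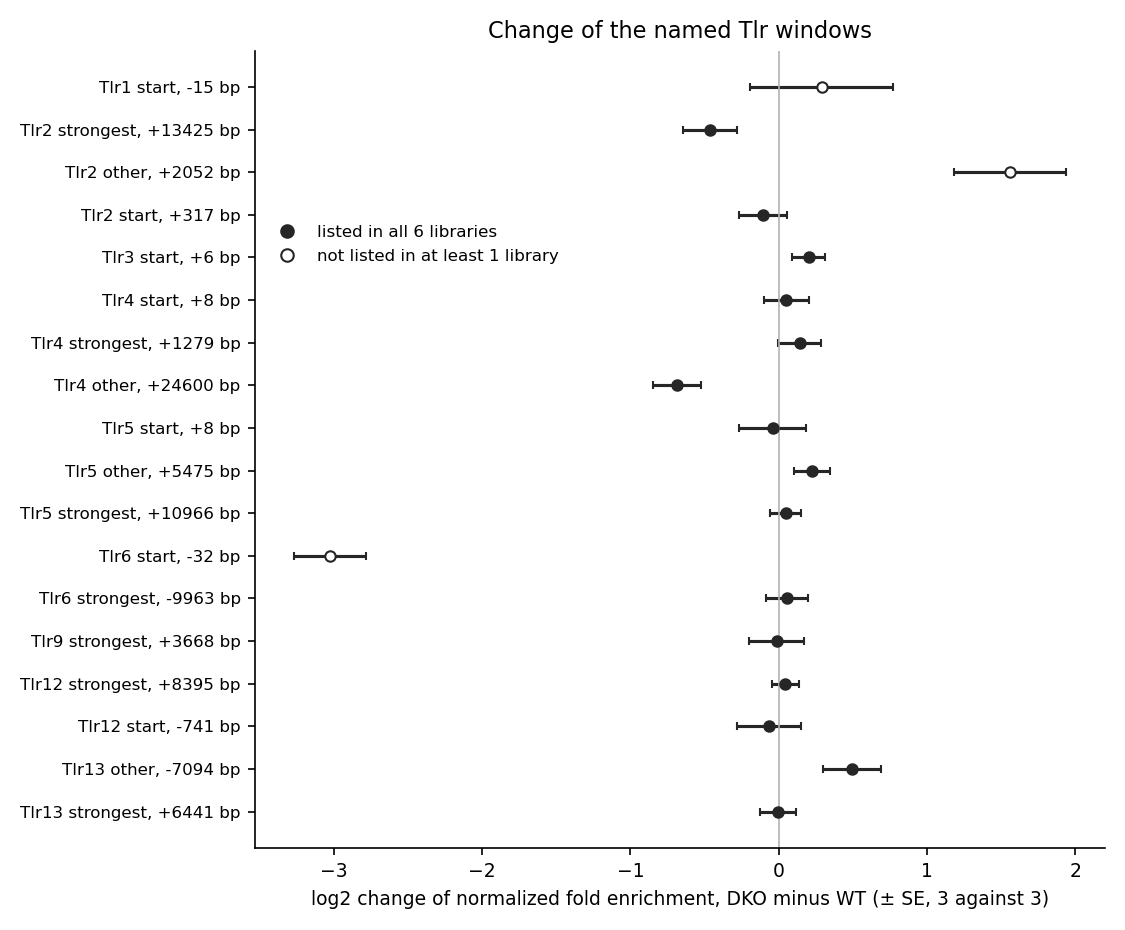
Log2 change of normalized fold enrichment (DKO minus WT, point and SE, 3 libraries against 3) of the 18 named windows, with the distance of the window centre from the gene start in bp, positive downstream. Open points were not listed in at least 1 library. The Tlr6 start window at −3.02 and the Tlr2 intronic window at 1.56 lie apart from the others, which fall between −0.68 and 0.49.

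**Figure D4:**
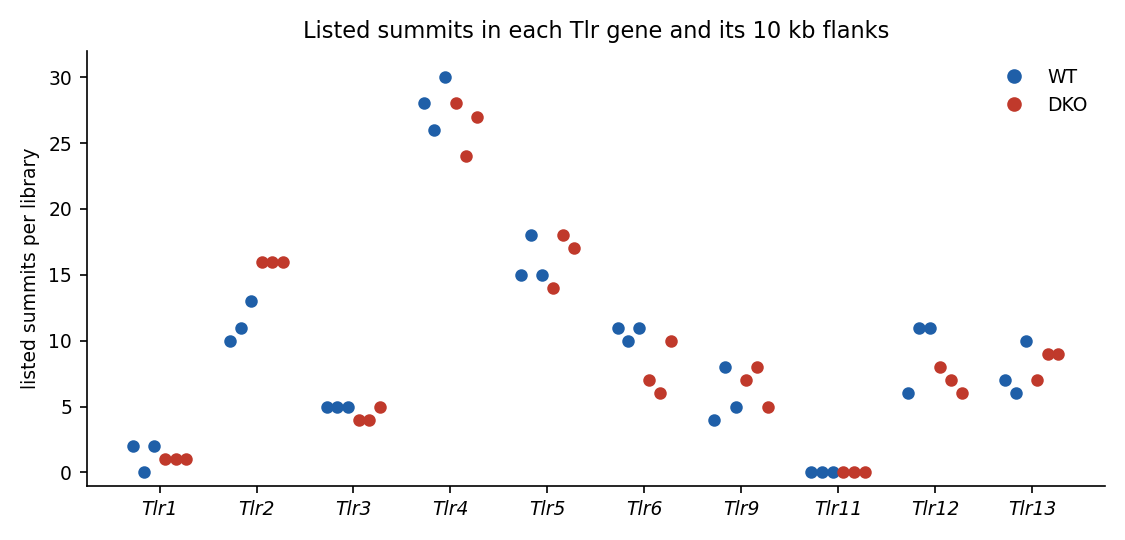
Number of listed summits in each gene body and its 10 kb flanks, a point for each library, WT in blue and DKO in red. Tlr4 holds the most (24 to 30), Tlr11 none, and the 16 summits of each DKO library at Tlr2 lie above the 10 to 13 of the WT libraries. The Tlr2 comparison was singled out after its values were seen.

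The surroundings of Tlr6 were read over 1 Mb on either side. Of 303 windows there, 4 (1.32%) were listed in WT only and 1 (0.330%) in DKO only, and 64 (21.1%) did not overlap between groups, 26 of them lower and 38 higher in DKO. Over all windows these shares were 1.23%, 1.14% and 16.4%. The 4 include the Tlr6 start window, by which the genes were chosen, and the 64 include 3 windows of the Tlr6 locus. Nothing is read from the WT-only and no-overlap shares. The median log2 difference was 0.06. Of the windows there other than the Tlr6 start window, 2 passed the limma threshold, 1 lower and 1 higher in DKO, both on the downstream side. The window chr5:64002696-64003196, between genes, had pileups of 44, 39 and 57 in WT and 16, 20 and 14 in DKO (−1.12, limma adjusted p = 0.0328). The window chr5:64269546-64270046, in an intron of Tbc1d1, a regulator of glucose transport, had 12, 10 and 18 in WT and 55, 59 and 34 in DKO (1.63, limma adjusted p = 0.0212). Around Tlr4, all 14 windows without overlap, of 61 within 1 Mb (23.0%), were lower in DKO, with a median log2 difference of −0.49 over the 61. By limma 0 of the 61 passed the threshold, and 16 of the 61 had an unadjusted p under 0.05, against 11.8% of all windows. Lower windows also outnumbered higher ones among those without overlap around Tlr13 (8 of 10, median log2 difference −0.11 over 65 windows) and Tlr3 (18 of 29, median −0.03 over 190). The shares without overlap there, 15.4% and 15.3%, were below the 16.4% of all windows, where 13756 were lower and 15694 higher. Around the 7 genes other than Tlr4, Tlr13 and Tlr3 higher windows were the more frequent. Of these, the neighbours Tlr1 and Tlr6 share most of their windows. Tlr11 had the largest share without overlap (24.5%, 9 lower and 15 higher). Tlr4 was singled out after its values were seen, and the difference between neighbourhoods was not tested.

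**Figure D5:**
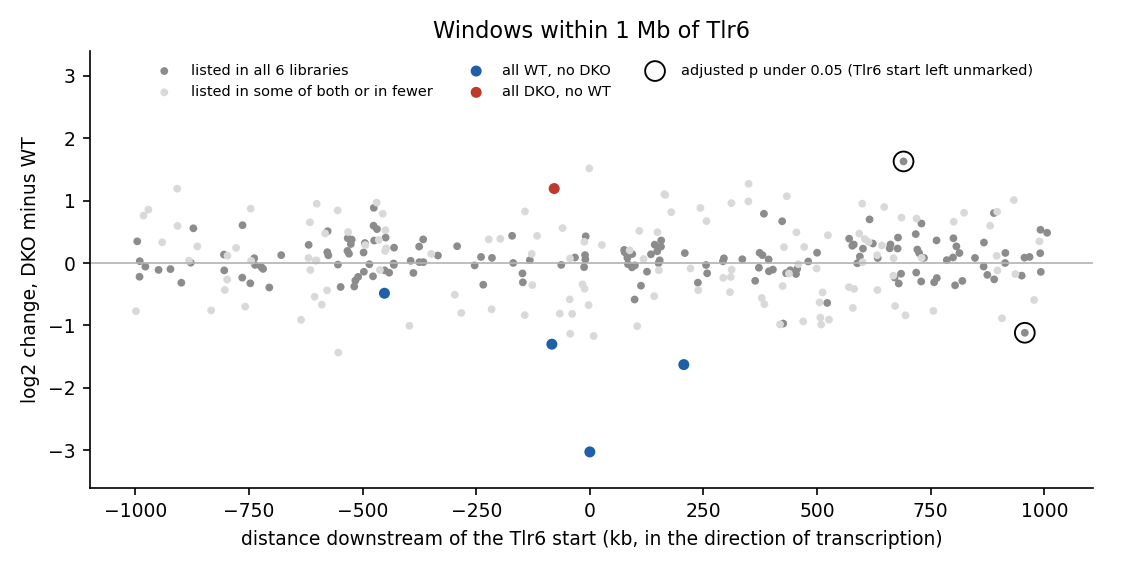
Log2 change (DKO minus WT) of the 303 windows within 1 Mb of Tlr6 against distance downstream of its start in kb, coloured by listing, with circles around the 2 windows with a limma adjusted p under 0.05 other than the Tlr6 start window. The latter lies at −3.02, and the next lowest of the windows listed in WT only at −1.63.

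The 5 windows most like the Tlr6 start window were taken by Euclidean distance of normalized log2 values over the 6 libraries. The DKO libraries enter that window at the lowest value of their lists. The distance therefore favours windows found in the 3 WT lists and no DKO list, as these 5 were. The closest, at a distance of 0.363, was chr16:93082159-93082659 with WT pileups of 83, 69 and 117. It was followed by chr1:16007846-16008346 (0.369), chr17:36131787-36132287 (0.420) and chr2:10297618-10298118 (0.594), all between genes. The fifth, chr5:76836932-76837432 (0.597), lies in an intron of C530008M17Rik. None is within 1 kb of a start.

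The other genes of the pathway were read in the same way. The 47 genes, from receptor partners to inhibitors of NF-kappaB, held 363 windows, and 45 had a window within 1 kb of a start. None of the 363 passed the limma threshold in either direction, while 48 (13.2%) had an unadjusted p under 0.05, against 11.8% of all windows. There were 62 windows (17.1%) without overlap, 15 lower and 47 higher in DKO, against 16.4% of all windows, where 13756 were lower and 15694 higher. The median log2 difference was 0.10. The count was 17 of 69 (24.6%; 3 lower, 14 higher) for the transcription factors and 22 of 121 (18.2%; 5 lower, 17 higher) for kinases and ligases. It was 13 of 71 (18.3%) for receptor partners and trafficking, 8 of 70 (11.4%) for inhibitors, 2 of 27 (7.41%) for adaptors and 0 of 5 for Tlr7 and Tlr8.

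At 7 starts described here, every library had a summit and the groups overlapped. Myd88, the adaptor of most TLRs, had a start window of 5.29, 4.70 and 6.18 in WT and 4.10 to 5.36 in DKO (log2 difference −0.07 ± 0.22). Ticam1, which encodes the adaptor TRIF of TLR3 and TLR4, had 16.0, 18.1 and 19.4 in WT and 20.6, 18.9 and 18.0 in DKO (0.23 ± 0.11). Of the partners of TLR4, Cd14 differed by 0.09 ± 0.15 and Ly96 by 0.15 ± 0.12. Unc93b1, the chaperone of endosomal TLRs, differed by 0.07 ± 0.10. The NF-kappaB inhibitors Nfkbia and Tnfaip3 differed by 0.19 ± 0.13 and −0.11 ± 0.10. The limma adjusted p of these 7 windows ranged from 0.451 to 0.956.

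Of the 45 pathway starts, 6 (13.3%) had normalized values that did not overlap between groups, all of them higher in DKO, against 17.5% of the 30377 start windows (1321 lower, 3987 higher). They are named because of their values. Of the NF-kappaB subunits, Nfkb1 had fold enrichments of 8.06, 6.57 and 8.93 in WT and 9.46, 8.78 and 7.11 in DKO. These raw values overlapped, and the log2 difference of the normalized values was 0.29 ± 0.14. Those of Nfkb2 and Relb were 0.28 ± 0.11 and 0.23 ± 0.10. The kinase gene Ikbke, whose product acts upstream of interferon regulatory factors, differed by 0.53 ± 0.17. Tab1 and Tab3, which encode partners of the kinase TAK1, differed by 0.64 ± 0.16 and 0.25 ± 0.09. None passed the limma threshold, with adjusted p from 0.161 to 0.453. Windows listed in 1 genotype only numbered 3 (0.826%) for WT, in Cd36, Chuk and Nfkb1, against 1.23% of all windows. They numbered 6 (1.65%) for DKO, in Lbp, Cd36, Irak4, Otulin and 2 in Nfkb1, against 1.14%. Their pileups lay between 8 and 35.

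TLR genes are most active in macrophages and other leukocytes, so the starts of 11 leukocyte markers were read beside them. Csf1r, Cd68, Lyz2 and Cd14 were listed in all 6 libraries and Mrc1 in none. Ptprc was listed in WT replicate 1 alone, Adgre1 in DKO replicates 1 and 2 alone, Cx3cr1 in WT replicates 1 and 3 alone, and Spi1 in replicate 1 of each genotype. Itgam and C1qa were listed in all 3 DKO and no WT libraries, with fold enrichments of 3.28 to 5.95. The summed fold enrichment of the 11 was 26.1 to 38.6 in WT and 32.6 to 42.3 in DKO, and its part in the Tlr values was not tested. Of 4 lymphocyte markers, 3 had no summit anywhere and Cd3e had a summit in DKO replicate 3. Among endothelial markers Pecam1, Kdr and Tek were listed throughout and Cdh5 in the 3 DKO libraries alone, with sums of 33.3 to 42.1 in WT and 33.5 to 40.3 in DKO. Of 3 epithelial markers Krt8 was listed in 3 libraries, Epcam in 1 and Krt18 in none, and of 2 adipocyte markers Adipoq in 1 and Plin1 in none.

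Motifs and base content of the Tlr windows are given beside those of all windows, without a test. The AP-1 motif lay in the central 201 bp of 20 of 51 (39.2%), against 30.0% of all windows. C/EBP was found in 6 of 51 (11.8%), against 21566 of 179249, TEAD in 7.84% against 16.3%, SPI1 in 3.92% against 2.11%, NF-kappaB in 3.92% against 2.65% and ISRE in 3.92% against 2.64%. Median GC was 45.7% against 46.3% and median repeat content 10.8% against 10.6%. Of the start windows, those of Tlr1 (SPI1) and Tlr12 (ISRE) were the only ones with a match in the central 201 bp, while the RefSeq promoters of Tlr2 and Tlr3 held matches outside it. None of the 7 start windows had a copy of at least 50 bases at 98% identity elsewhere in the assembled chromosomes, and the best other match of the Tlr6 window was 86.3% identical. The centre of the Tlr13 window upstream of the start, chrX:106136035-106136235 on the plus strand, is given as an example with its AP-1 match in capitals.
Tlr13 upstream window: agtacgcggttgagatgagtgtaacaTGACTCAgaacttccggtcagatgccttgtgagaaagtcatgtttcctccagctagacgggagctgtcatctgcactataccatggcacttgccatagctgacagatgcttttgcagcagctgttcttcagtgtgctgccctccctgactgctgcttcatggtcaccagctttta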

How the data were processed

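The study prepared ATAC-seq libraries from cultured preadipocytes and, per the labels' processing notes, used bcl2fastq 2.17, cutadapt 1.18, Bowtie2 2.3.4.3 (mm10) and MACS2 (version and blacklist not given in the sources used here). Per the names of the lists, duplicates and mitochondrial reads were removed, peaks were called per library at a p of 0.01, and the best 300000 were kept. The deposited fold enrichment is the ratio of pileup plus 1 to local background plus 1, and the authors deposited p-values and q-values as −log10 values. No read counts were used.

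Pileups were recovered from fold enrichment and p with the Poisson model of MACS2 and came out whole (within 0.05) for 100% of summits. Windows of 501 bp were centred on the best summits, without overlap, on chromosomes 1 to 19 and X, and kept where at least 2 libraries had a summit with q under 0.01. A library without a summit took the lowest fold enrichment of its list. Log2 values were quantile-normalized and compared (DKO minus WT, two-sided) with limma 3.58.1 in R 4.3.3 (lmFit, eBayes with trend, Benjamini-Hochberg over all windows, threshold 0.05). The fit was tested on data simulated from windows listed in all 6 libraries, which does not cover windows with unlisted values. Genes came from GENCODE M21, basic set, with overlaps described from the comprehensive set. RefSeq promoters matched 9 of the 10 genes (not Tlr4). Copies were sought with blastn 2.17.0.

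The windows named were, for each gene, the strongest window (by mean fold enrichment over the 6 libraries, unlisted values at the end of their list), the window nearest the start within 1 kb, and windows called, listed in 1 genotype only, or listed in all 6 libraries without overlap of normalized values. The other Tlr6 windows and 1 at Tlr4 were added after their values were seen. Genes and lists were chosen with earlier results of these data known. Alternatives were 2 other scalings, pileups, 2 filters on summits, eBayes without trend, a replicate block, 301 bp windows, 5 kb or no flanks, and leaving out each library.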

Additional observations from a re-analysis of the deposited data

How the results depend on the processing

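Over all windows, 107 windows were lower or higher in DKO at the threshold. The number was 244 with median centring (157 lower, 87 higher), 26 without scaling (14 and 12), 910 among windows listed in all 6 libraries (614 and 296), 771 with the 50000 best summits, 4136 without the trend (2089 and 2047) and 75 with pileups (39 and 36). Without scaling the median over all windows was −0.14. Leaving out any library left 0 to 6 windows. The replicate numbers did not pair the libraries (correlations of 0.0054, −0.011 and −0.0071), and a replicate block gave 0 windows, with 18195 at an unadjusted p under 0.05, and 0 Tlr windows lower. The number of Tlr windows lower, 1 (the Tlr6 start window that chose the genes), was also 0 whichever library was left out and among windows listed in all 6 libraries. A Tlr window was higher with the 50000 best summits (1, Tlr3 start) and without the trend (1, the Tlr2 intronic window, limma adjusted p = 0.0260). Tlr windows listed in WT only numbered 1 to 3 and in DKO only 1 to 3 when a library was left out, and 3 and 2 with narrower windows, where the added ones lay in Tlr6 354 to 360 bases past its start, in Tlr4 and upstream of Tlr13.

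Differences near 0 changed sign. Without scaling the value was −0.14 for the Tlr4 start, −0.018 for the strongest Tlr4 window, −0.086 for the strongest Tlr5 window and −0.067 for the strongest Tlr12 window. With pileups it was −0.11, −0.015, −0.20 and −0.14 for the same 4 windows, 0.062 for Tlr9 and 0.051 for the strongest Tlr13 window. The Tlr12 start came to 0.036 with narrower windows, and the strongest Tlr13 window to 0.028 with median centring. The Tlr6 window at the Fam114a1 start came to −0.13 without scaling, −0.032 with pileups and −0.030 to 0.12 with a library left out. With a library left out, values ranged from −0.026 to 0.12 for the Tlr4 start, −0.097 to 0.017 for the Tlr5 start, −0.012 to 0.13 for the strongest Tlr5 window, −0.10 to 0.12 for Tlr9, −0.0068 to 0.088 and −0.19 to 0.18 for the strongest and start windows of Tlr12, and −0.090 to 0.084 for the strongest Tlr13 window. Of 241 alternative values of the 18 named windows, 213 kept direction and side of the threshold or, at Tlr1 and Tlr6, stayed within the spread of replicates. The cause of these shifts was not tested. Depth is known only through the background level, and an unlisted site lies below the end of its list.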
